A study of Mus musculus with 16 samples.

Results

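The response of the liver transcriptome to ethanol was followed in mice labelled as liver-specific DRP1 knockouts, by setting the 4 libraries made after Gao-Binge ethanol against the 4 libraries of the same genotype on the control treatment. These 8 libraries were chosen by their labels, out of 16 libraries in 4 groups of 4, and all 13256 genes with a mean of at least 10 normalised reads over the 16 libraries were compared, out of 27288 genes listed. Every group came from whole snap-frozen liver of C57BL/6 mice aged 8 to 10 weeks. The 4 groups were wild type with the control treatment, wild type with ethanol, L-Dnm1l KO with the control treatment and L-Dnm1l KO with ethanol, so the knockout is shared by both groups compared here and the treatment is what separates them. In the Gao-Binge model, mice take a liquid diet with ethanol and then receive a large dose of ethanol by mouth. The sources used here do not give the Cre driver, the part of Dnm1l that was deleted, the sex of the mice, or the hour of tissue collection. The labels list every library as a separate sample but do not say whether separate mice were used, so a p-value here speaks only of the spread between libraries, which may be technical.

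DRP1 is the GTPase that is recruited from the cytosol to the mitochondrial surface, assembles into rings there and divides the organelle; without it mitochondria grow into enlarged, poorly divided bodies. The liver clears most of the ethanol that is drunk, through alcohol dehydrogenase, the microsomal enzyme CYP2E1 and mitochondrial aldehyde dehydrogenase, and this oxidation shifts the redox state and fat metabolism of hepatocytes. Fatty liver, stress signaling in hepatocytes and inflammation are the classic consequences of an ethanol binge on top of regular intake.

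In what follows, control and ethanol libraries are those labelled knockout unless wild type is named, and 4 values in a row are libraries 1 to 4 of a group. Levels are normalised reads per gene, read counts divided by a size factor per library; they are not divided by gene length, so levels of different genes are not compared. A gene is said to have risen or fallen where limma gave a Benjamini-Hochberg adjusted p under 0.05 over all 13256 genes, and log2 fold changes are ethanol minus control on log2(normalised reads + 1). Unless stated otherwise, each named call of the ethanol response was also made in the same direction without ethanol libraries 1 and 4 together and without any single library of the series. Wild-type counts are given for reference, and 38.0% of all tested genes were called there against 19.2% here. A call in 1 genotype only is not a difference between the genotypes, which was tested separately. Such a difference was called for 46 genes, and for 0 without ethanol libraries 1 and 4.

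The 8 libraries held 11425136 to 13746082 reads assigned to genes. Markers of tissues other than liver differed between the ethanol libraries. The summed level of 16 pancreatic acinar genes was 13613 normalised reads in ethanol library 1 and 101 to 320.1 in the other 15 libraries of the series, where the trypsinogen gene Prss2 reached 1229 in library 1 and at most 1.89 in the other libraries labelled knockout. Ethanol library 4 held 6166 normalised reads over 7 red cell genes, against 1454 to 2392 in the other 7 libraries, and Adipoq, which encodes the fat cell hormone adiponectin, was at 18.3 there, 9.84 in ethanol library 1 and 0 in the other 6. Hepatocyte markers were high in all 8 libraries, with Alb between 718685 and 1097129 normalised reads. Libraries of a group also differed among themselves. The mean chi-square per gene between 2 ethanol libraries was 22.2 for libraries 1 and 2, 11.9 for libraries 3 and 4, and 31.0 to 36.1 across these sets. Among the controls it was 67.4 and 58.5 for library 3 against libraries 1 and 2, 36.5 for libraries 1 and 4, 35.5 for libraries 3 and 4, and 15.6 to 21.9 for the remaining 2 comparisons.

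Dnm1l, the targeted gene (ENSMUSG00000022789, chromosome 16, 16312230 to 16358959 on GRCm38), was at 666, 654, 539 and 709 normalised reads in the control libraries and at 776, 949, 730.1 and 756 in the ethanol libraries. All 4 ethanol values lay above the controls (802.9 ± 99.3 against 641.9 ± 72.7, SD, n = 4 each; exact two-sided permutation p = 0.0286, the smallest that 4 against 4 allows). Limma gave a log2 fold change of 0.32 with an adjusted p of 0.0421, a call that was lost without ethanol libraries 1 and 4 (limma adjusted p = 0.0998) and without any 1 of control libraries 1, 2 and 3, ethanol libraries 1, 2 and 4 or wild-type control libraries 1, 3 and 4 (limma adjusted p from 0.0503 to 0.142). Wild-type livers held 707, 581, 686 and 677 normalised reads with the control treatment and 778, 771, 725 and 697 with ethanol, and the control libraries labelled knockout overlapped the wild-type controls. A deletion of some exons leaves reads over the others, so this total does not check the genotype labels, and each statement below is about libraries as labelled.

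Ethanol changed 2543 of the 13256 genes in the libraries labelled knockout, 19.2% of those tested. Of these, 1348 rose (10.2% of all tested) and 1195 fell (9.01%), with at least a 2-fold difference for 450 and 239. Without ethanol libraries 1 and 4, 1003 genes (7.57%) were called, 578 higher (4.36%) and 425 lower (3.21%); all 2543 genes kept their sign and 984 of them kept their call. The fallen genes numbered 762 without control library 2. List counts of 4 or fewer often changed by a gene or more without 1 library, and nothing is read from them. The median log2 fold change over all tested genes was -0.01, beside which the medians of gene lists below are given.

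Among the rises of abundant genes was Cyp2b10, a cytochrome P450 that is the classic target of the nuclear receptor CAR (ENSMUSG00000030483, chromosome 7, 25897620 to 25926624), at 77.7, 26.5, 41.4 and 23.4 normalised reads in the control libraries and 4731, 13265, 11816 and 10559 in the ethanol libraries. Ethanol library 1 was the lowest of its group, still far above every control, and the gene was 243-fold higher (log2 7.93 ± 0.42 SE, limma adjusted p = 1.07e-08). Cidec, which encodes a protein that fuses lipid droplets into larger ones (ENSMUSG00000030278, chromosome 6, 113424634 to 113435760), went from 59.1, 93.7, 179 and 63.04 to 1873, 1079, 1648 and 2425, up 18.8-fold (log2 4.23 ± 0.33 SE, limma adjusted p = 1.47e-06). Cdkn1a, the p53 target that encodes the cell cycle inhibitor p21 (ENSMUSG00000023067, chromosome 17, 29090976 to 29100727), was at 128, 65.3, 138 and 119.8 and then 1269, 2345, 605 and 975. Cdkn1a rose 10.5-fold (log2 3.39 ± 0.48 SE, limma adjusted p = 1.87e-04); ethanol library 2 was the highest and library 3 the lowest. Further large rises were Slc16a5, a monocarboxylate transporter gene (6.38-fold, limma adjusted p = 1.60e-04), Acnat2, of an acyl-CoA amino acid N-acyltransferase (5.31-fold, limma adjusted p = 2.25e-05), and Aass, of the enzyme that begins lysine breakdown (5.597-fold, limma adjusted p = 5.55e-04).

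Among the falls of abundant genes was Keg1 (ENSMUSG00000024694, chromosome 19, 12695786 to 12719902), a glycine N-acyltransferase-like gene, at 2072, 2682, 2273 and 2708 in the control libraries and 239, 335, 376 and 589 in the ethanol libraries, to a fold of 0.151 (log2 -2.72 ± 0.35 SE, limma adjusted p = 8.48e-05). Nudt7, which encodes a peroxisomal hydrolase of coenzyme A (ENSMUSG00000031767, chromosome 8, 114133557 to 114154739), went from 6354, 7985, 7424 and 8273 to 2132, 1586, 2116 and 2594. Nudt7 fell to a fold of 0.278 (log2 -1.85 ± 0.14 SE, limma adjusted p = 1.47e-06). Groups, which the rule that named both genes required not to overlap, were far apart, with no library near the other group. Hcn3, a cation channel gene, fell to a fold of 0.195 (limma adjusted p = 0.00231), Nrep to 0.205 (limma adjusted p = 0.0012), Col27a1, a fibrillar collagen gene, to 0.234 (limma adjusted p = 4.81e-04), Hsd3b2, of a steroid dehydrogenase, to 0.247 (limma adjusted p = 2.43e-04) and Klhdc7a to 0.272 (limma adjusted p = 0.00303).

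**Figure D1:**
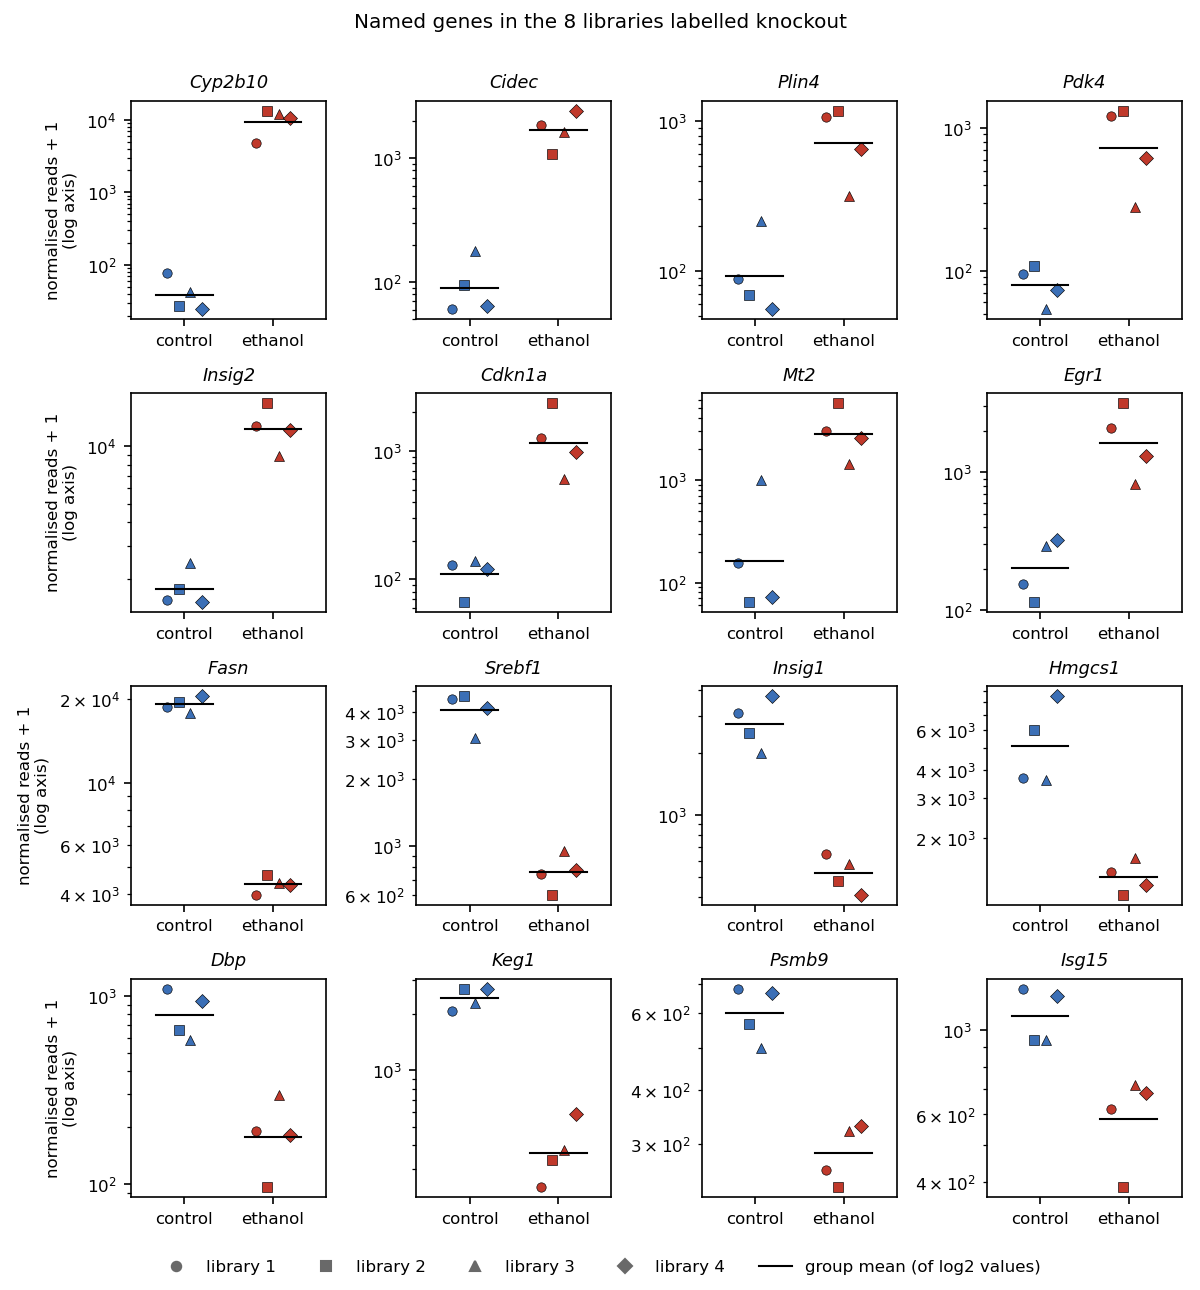
Normalised reads + 1 on log axes for 16 named genes in the 4 control libraries (blue) and the 4 ethanol libraries (red) labelled knockout. Marker shapes give the library number and lines the group means of log2 values, and the groups do not overlap in any panel. For all genes but Psmb9 and Isg15 this was required by the rule that named them. Control library 3 is the control nearest to the ethanol libraries for Cidec, Plin4, Insig2, Cdkn1a, Mt2, Fasn, Srebf1, Insig1, Hmgcs1, Dbp and Psmb9. Another control is nearest for Cyp2b10, Pdk4, Egr1, Keg1 and Isg15.

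Most genes of fat synthesis fell. Of the 23 tested genes of de novo lipogenesis, 15 fell and 1 rose, with a median log2 fold change of -0.89 (8 and 0 without ethanol libraries 1 and 4). Srebf1, the transcription factor that switches on lipogenesis under insulin (ENSMUSG00000020538, chromosome 11, 60199089 to 60222581), was at 4569, 4735, 3061 and 4171 normalised reads in the control libraries and 746, 602, 946 and 781 in the ethanol libraries. Srebf1 fell to a fold of 0.186 (log2 -2.42 ± 0.29 SE, limma adjusted p = 4.07e-05). Its target Fasn, fatty acid synthase (ENSMUSG00000025153, chromosome 11, 120805846 to 120824547), was at 18728, 19548, 17880.1 and 20496 and then 3969.6, 4674, 4384 and 4299.6. Fasn fell to a fold of 0.226 (log2 -2.15 ± 0.23 SE, limma adjusted p = 1.41e-05). Neither gene had an ethanol library near the control range, and both were named by a rule that required groups without overlap. Acly, the enzyme that makes cytosolic acetyl-CoA from citrate, fell to a fold of 0.185 (limma adjusted p = 6.31e-04), Acaca, acetyl-CoA carboxylase, to 0.459 (limma adjusted p = 6.70e-04), and Mid1ip1, which helps that carboxylase to polymerise, to 0.281 (limma adjusted p = 0.00196). The carbohydrate-sensing factor gene Mlxipl fell to 0.487 (limma adjusted p = 1.94e-04) and Pklr, liver pyruvate kinase and a classic target of that factor, to 0.347 (limma adjusted p = 0.0038).

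Some lipogenic genes did not follow. Scd1, the main desaturase, was at 84321, 111299, 39595 and 59049 in the control libraries and 95243, 60458, 35584 and 38224 in the ethanol libraries, with overlapping groups and ethanol library 1 above 3 of the controls (log2 -0.37 ± 0.37 SE, limma adjusted p = 0.505). Lpin2, a phosphatidate phosphatase of triglyceride synthesis, was the member that rose, 1.83-fold (limma adjusted p = 0.0119); without ethanol libraries 1 and 4 its call was lost (limma adjusted p = 0.0813). The mean log2 level of the list was 10.91 to 11.401 in the control libraries and 10.07 to 10.45 in the ethanol libraries, without overlap. Wild-type livers gave 15 falls and no rise on this list, with a median of -0.87.

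The sterol pathway moved the same way. Cells sense membrane cholesterol through SCAP and the INSIG proteins, which hold SREBP in the endoplasmic reticulum when sterols are plentiful and release it when they are scarce; SREBP then binds sterol regulatory elements in the promoters of cholesterol synthesis genes. Of 27 tested genes 16 fell and 1 rose, with a median log2 fold change of -1.11 (8 and 1 without ethanol libraries 1 and 4; 18 and 1 in wild type, median -1.41). The INSIG genes went in opposite directions. Insig1, an SREBP target (ENSMUSG00000045294, chromosome 5, 28071363 to 28078662), was at 3121, 2478, 1987 and 3749.7 in the control libraries and 646, 478, 581 and 411 in the ethanol libraries. Insig1 fell to a fold of 0.189 (log2 -2.400 ± 0.21 SE, limma adjusted p = 3.56e-06). Insig2 (ENSMUSG00000003721, chromosome 1, 121304353 to 121332589), the form that SREBP does not induce, was at 1552, 1773, 2425 and 1519 and then 12814, 16755, 8839 and 12082, up 6.89-fold (log2 2.78 ± 0.25 SE, limma adjusted p = 3.56e-06). For both genes all 4 ethanol libraries lay on 1 side of all 4 controls, as the rule that named them required.

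Enzymes at several steps of the pathway fell. Hmgcs1, of the synthase that makes HMG-CoA for cholesterol, was at 3701, 6045, 3616 and 8528 and then 1404, 1116, 1629.7 and 1234 (log2 -1.94 ± 0.38 SE, limma adjusted p = 0.00225), where control libraries 2 and 4 were the highest. Mvd, mevalonate diphosphate decarboxylase, fell to a fold of 0.228 (limma adjusted p = 0.00145) and Fdft1, squalene synthase, to 0.319 (limma adjusted p = 6.25e-04). Sqle, squalene epoxidase, did not pass the test (log2 -1.16 ± 0.40 SE, limma adjusted p = 0.0505). Stard4, a carrier of cholesterol inside the cell, was at 1106, 1464, 1393 and 1918 in the control libraries and 544, 457, 553 and 402 in the ethanol libraries, and fell to a fold of 0.337 (limma adjusted p = 5.94e-05).

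The promoter of Hmgcs1, the called gene of this list whose promoter held the element searched, is given from 250 bases before to 50 after the RefSeq start (GRCm38.p6, chr13:119690101-119690400, plus strand), 5′ to 3′, with the match in capitals.
Hmgcs1: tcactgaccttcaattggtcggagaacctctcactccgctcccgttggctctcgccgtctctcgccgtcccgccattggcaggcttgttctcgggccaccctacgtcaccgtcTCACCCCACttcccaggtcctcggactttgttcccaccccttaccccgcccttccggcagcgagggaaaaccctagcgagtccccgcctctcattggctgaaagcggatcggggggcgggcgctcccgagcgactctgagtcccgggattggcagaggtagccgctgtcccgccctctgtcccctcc
The search used TCACNCCAC on both strands. It matched in 1 of the 10 fallen sterol genes with a promoter in the table and in 1.51% of 9760 tested genes with one; a match is a description of letters and not a shown binding site.

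Fatty acid oxidation genes went up where they changed. Of 33 tested PPARA targets and oxidation genes, 12 rose and none fell, with a median log2 fold change of 0.28 (6 and 0 without ethanol libraries 1 and 4). Wild type gave 6 rises and 6 falls with a median of -0.07, and the difference was called for 1 of the 33. Cyp4a10, a fatty acid omega-hydroxylase and classic PPARA target (ENSMUSG00000066072, chromosome 4, 115518264 to 115533649), was at 1483, 2003, 808 and 703 and then 6025, 6974, 7015 and 7919.9. Cyp4a10 rose 6.09-fold (log2 2.61 ± 0.31 SE, limma adjusted p = 4.42e-05). Control libraries 1 and 2 were above 3 and 4 for this gene, and more so for its neighbor Cyp4a14, at 5835, 4124, 1249 and 920.3 and then 16290.4, 13323, 11545 and 7828 (log2 2.37 ± 0.50 SE, limma adjusted p = 0.0038). The Cyp4a genes are close copies, and how reads were divided between them is uncertain. Pdk4, the kinase that shuts pyruvate out of mitochondrial oxidation (ENSMUSG00000019577, chromosome 6, 5483351 to 5496309), was at 94.3, 107, 52.5 and 72.04 and then 1209, 1316, 276 and 616. Pdk4 rose 9.07-fold (log2 3.18 ± 0.60 SE, limma adjusted p = 0.00177), with ethanol library 3 the lowest of its group. Acot2, a mitochondrial acyl-CoA thioesterase, rose 7.05-fold (limma adjusted p = 3.56e-06) and the fasting-induced transcription factor gene Creb3l3 1.49-fold (limma adjusted p = 2.43e-04).

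Cpt1a, which loads fatty acids for entry into mitochondria, had a log2 fold change of 0.27 (limma adjusted p = 0.0993) and did not pass the test. Ppara, which encodes the receptor itself (ENSMUSG00000022383, chromosome 15, 85734983 to 85802819), was at 499, 773, 755 and 1045 in the control libraries and 916, 853, 662 and 656 in the ethanol libraries (log2 0.04 ± 0.22 SE, limma adjusted p = 0.922). In wild type Ppara fell, from 1487, 1802, 1600.5 and 1477 to 369, 536, 845 and 539.8 (log2 -1.53 ± 0.22 SE, limma adjusted p = 6.74e-05), and the responses of the genotypes differed by 1.57 ± 0.31 SE, limma adjusted p = 0.0417. That difference was not called without ethanol libraries 1 and 4.

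Lipid droplets store triglyceride under a shell of perilipins, and lipases attack them from that surface. Of 19 tested genes of the lipid droplet and lipolysis list 8 rose and 1 fell, with a median log2 fold change of 0.33. Without ethanol libraries 1 and 4 the counts were 6 and 1, and in wild type 8 and 3. Plin2, the main perilipin of the fatty hepatocyte (ENSMUSG00000028494, chromosome 4, 86648386 to 86670060), was at 6266, 7254, 6727 and 6036 and then 24713, 15474, 17401 and 20583. Plin2 rose 2.93-fold (log2 1.55 ± 0.17 SE, limma adjusted p = 1.86e-05). Plin4, a perilipin best known from fat cells (ENSMUSG00000002831, chromosome 17, 56100591 to 56109803), was at 87.03, 68.2, 215 and 54.03 and then 1059, 1172, 314 and 654 (log2 2.95 ± 0.45 SE, limma adjusted p = 3.59e-04), where control library 3 was the highest control and ethanol library 3 the lowest ethanol library. Plin3 rose 2.05-fold (limma adjusted p = 4.87e-06), Plin5, the perilipin that ties droplets to mitochondria, 2.69-fold (limma adjusted p = 6.08e-04), and Pnpla2, the lipase that starts triglyceride breakdown, 2.26-fold (limma adjusted p = 9.24e-05). The fat cell hormone gene Adipoq was at 9.84, 0, 0 and 18.3 in the ethanol libraries. The part of fat cells in the levels of these droplet genes was not tested.

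Uptake genes were divided, with 5 of 18 higher and 5 lower (2 and 3 without ethanol libraries 1 and 4). Vldlr, the receptor for triglyceride-rich particles (ENSMUSG00000024924, chromosome 19, 27216484 to 27254231), was at 11.4, 4.73, 5.52 and 5.403 and then 47.2, 75.6, 69.7 and 50.04. Vldlr rose 8.18-fold (log2 3.03 ± 0.27 SE, limma adjusted p = 3.62e-06). Fabp4, a fatty acid carrier of fat cells, macrophages and endothelium, rose 2.77-fold (limma adjusted p = 1.15e-04). Fabp1, the carrier of the hepatocyte, fell to a fold of 0.526 (limma adjusted p = 0.00565) and Fabp5 to 0.173 (limma adjusted p = 0.00112). Cd36, the fatty acid translocase, rose 1.66-fold (limma adjusted p = 0.017), a call that was lost without ethanol libraries 1 and 4, without ethanol library 1 alone or without ethanol library 2 alone (limma adjusted p = 0.0536, 0.0581 and 0.0611). The list gave 3 rises without any 1 of ethanol libraries 1, 2 and 4, and 3 falls without any 1 of control libraries 1 and 2 or ethanol library 4. Of 23 apolipoprotein and assembly genes 3 rose and 2 fell. Apoa4 rose 3.93-fold (limma adjusted p = 0.00459), a call lost without ethanol libraries 1 and 4 (limma adjusted p = 0.0696), and Mttp and Apob, needed to build VLDL, did not pass the test (log2 -0.03 and 0.46).

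Of 16 tested genes of ethanol and acetaldehyde metabolism 1 rose and 3 fell. Adh4, an alcohol dehydrogenase that also handles retinol (ENSMUSG00000037797, chromosome 3, 138415466 to 138430892), was at 1715, 1684, 1168 and 2389.9 and then 525, 523, 541 and 472. Adh4 fell to a fold of 0.306 (log2 -1.71 ± 0.16 SE, limma adjusted p = 4.69e-06). Acss3, a mitochondrial short-chain acyl-CoA synthetase (ENSMUSG00000035948, chromosome 10, 106933517 to 107123668), was at 58.02, 86.2, 77.3 and 74.7 and then 281, 434, 273 and 282. Acss3 rose 4.204-fold (log2 2.07 ± 0.20 SE, limma adjusted p = 6.58e-06); its log2 fold change in wild type was 0.998. Enzymes that carry most of the flux did not pass the test: Adh1 had a log2 fold change of -0.12 (limma adjusted p = 0.72), Aldh2 of 0.03 (limma adjusted p = 0.9), and Cyp2e1, at 46586, 60258, 57905 and 43483 and then 59667, 58492, 38728 and 51658, overlapped between the groups (limma adjusted p = 0.992). Cat, catalase, fell to a fold of 0.672 (limma adjusted p = 0.00849), and without ethanol libraries 1 and 4 its call was lost (limma adjusted p = 0.06).

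Drug-metabolising cytochrome P450 genes rose for 9 of 36 and fell for 2, with a median log2 fold change of 0.32 (10 and 2 without ethanol libraries 1 and 4; 20 and 3 in wild type, median 0.89). Beside Cyp2b10, Cyp2c29 (ENSMUSG00000003053, chromosome 19, 39269405 to 39330713) was at 3904, 4543, 2933 and 2413 and then 7956, 19581, 22488 and 14398. Cyp2c29 rose 4.48-fold (log2 2.16 ± 0.29 SE, limma adjusted p = 1.41e-04), lowest in ethanol library 1 as Cyp2b10 was. Por, the reductase that feeds electrons to these enzymes, was at 4629, 4059, 5242 and 2977 and then 10080.3, 13786, 9679.9 and 9455 (log2 1.36 ± 0.19 SE, limma adjusted p = 1.92e-04), highest in ethanol library 2. Cyp2u1 fell to a fold of 0.259 (limma adjusted p = 1.96e-04). Cyp3a11, the main PXR target, and Cyp1a2 had log2 fold changes of 0.51 (limma adjusted p = 0.374) and 0.35 (limma adjusted p = 0.183). Cyp2a, Cyp2c, glutathione transferase, Ugt, Raet1 and Saa genes have near-identical copies, and the division of their reads is uncertain.

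Conjugating enzymes went both ways, with 10 of 40 higher and 7 lower (6 and 4 without ethanol libraries 1 and 4; 6 higher without ethanol library 2). Sult1a1, a phenol sulfotransferase (ENSMUSG00000030711, chromosome 7, 126672865 to 126676432), was at 2271, 1902, 2755 and 2172 and then 7895, 9058, 7438 and 8215. Sult1a1 rose 3.605-fold (log2 1.85 ± 0.16 SE, limma adjusted p = 3.56e-06), with little spread inside either group. The glutathione transferase genes Gstt3 and Gstm3 rose 6.16-fold (limma adjusted p = 1.57e-05) and 4.04-fold (limma adjusted p = 0.00123). Ugt2b38, a glucuronosyltransferase gene, was at 43.5, 52.1, 36.8 and 66.6 and then 0.984, 2.04, 3.17 and 20.2 (log2 -3.37 ± 0.58 SE, limma adjusted p = 9.74e-04), with library 4 the highest of the ethanol libraries.

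Bile acid genes gave 4 rises and 3 falls of 22 (6 falls without control library 3). The export pumps of the sinusoidal side rose: Abcc4 (ENSMUSG00000032849, chromosome 14, 118482692 to 118706219) was at 62.2, 49.2, 38.7 and 39.6 and then 138, 231, 319 and 256. Abcc4 rose 4.77-fold (log2 2.25 ± 0.22 SE, limma adjusted p = 6.52e-06), and Abcc3 rose 1.71-fold (limma adjusted p = 4.04e-04). The uptake carrier genes fell, Slco1b2 to a fold of 0.639 (limma adjusted p = 0.00334) and Slc10a1 to 0.679 (limma adjusted p = 0.0109); the second call was lost without ethanol libraries 1 and 4 (limma adjusted p = 0.136). Cyp7a1, the rate-limiting enzyme of bile acid synthesis, was at 1746, 3240.0, 5719 and 5518 and then 568, 735, 1875 and 897 and did not pass the test (log2 -1.996 ± 0.86 SE, limma adjusted p = 0.112).

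Metallothioneins, small cysteine-rich proteins that bind zinc and copper, were among the largest rises. Their genes are switched on by the zinc sensor MTF1 through metal response elements and also by glucocorticoids. Mt2 (ENSMUSG00000031762, chromosome 8, 94172664 to 94173568) was at 154, 63.4, 988 and 71.1 in the control libraries and 2990.0, 5579, 1421 and 2579 in the ethanol libraries. Mt2 rose 17.1-fold (log2 4.097 ± 0.83 SE, limma adjusted p = 0.00288). Control library 3 was several times above the other controls, and still below every ethanol library. Mt1 (ENSMUSG00000031765, chromosome 8, 94179082 to 94180327) was at 1077, 522, 9553 and 1040.1 and then 15391, 19761, 8903 and 11288 (log2 3.103 ± 0.73 SE, limma adjusted p = 0.0074), where control library 3 overlapped the ethanol libraries. The call of Mt1 was lost without ethanol libraries 1 and 4, in edgeR and in DESeq2 (limma adjusted p = 0.063; edgeR adjusted p = 0.0561; DESeq2 adjusted p = 0.0563). Control library 3 was also the highest control for the acute-phase genes Saa1 and Lcn2, and the part of that library in these results was not tested. In wild type Mt2 had a log2 fold change of 8.38 and Mt1 of 5.74, and a difference of the responses was called for neither.

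The promoters of this pair, adjacent on chromosome 8, are shown because both genes rose (RefSeq, GRCm38.p6, plus strand, Mt1 at chr8:94178839-94179138 and Mt2 at chr8:94172368-94172667). Capitals mark matches on either strand to the letters TGCNCNC, a looser form of the metal response element core. A match is a description of letters and need not be that element or a binding site.
Mt1: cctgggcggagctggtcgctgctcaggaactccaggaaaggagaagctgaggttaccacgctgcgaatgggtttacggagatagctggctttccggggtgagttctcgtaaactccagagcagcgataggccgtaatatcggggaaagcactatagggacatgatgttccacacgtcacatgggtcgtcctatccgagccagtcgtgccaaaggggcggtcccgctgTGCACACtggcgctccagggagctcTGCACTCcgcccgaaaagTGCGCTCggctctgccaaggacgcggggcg
Mt2: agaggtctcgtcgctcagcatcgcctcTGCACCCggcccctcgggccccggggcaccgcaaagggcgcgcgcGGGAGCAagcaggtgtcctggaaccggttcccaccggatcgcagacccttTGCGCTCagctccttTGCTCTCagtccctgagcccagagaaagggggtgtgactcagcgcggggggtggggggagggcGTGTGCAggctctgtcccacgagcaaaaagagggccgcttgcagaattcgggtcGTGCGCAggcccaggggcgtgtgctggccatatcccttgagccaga
Mt1 held 3 matches and Mt2 held 6. This short motif was found at least once in 63.5% of the 9760 tested genes with a promoter, at least 3 times in 11.9% and at least 6 times in 0.410%.

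The NRF2 antioxidant list gave 4 rises and 3 falls of 29 (6 and 5 falls without control library 3 or 4). Wild type gave 14 rises and 3 falls, and the difference was called for 3 of the 29. NRF2 is held in the cytosol by KEAP1 until oxidants or electrophiles release it. Hmox1, heme oxygenase (ENSMUSG00000005413, chromosome 8, 75093621 to 75100589), was at 251, 273, 281 and 306 and then 996, 950.1, 2406 and 2494. Hmox1 rose 5.56-fold (log2 2.47 ± 0.46 SE, limma adjusted p = 0.00177), with ethanol libraries 3 and 4 well above 1 and 2. Srxn1, sulfiredoxin, rose 2.04-fold (limma adjusted p = 0.0047) with the same order of libraries. Slc7a11, the cystine importer, rose 2.79-fold (limma adjusted p = 0.00557), a call lost without ethanol libraries 1 and 4 (limma adjusted p = 0.0536). Gclm, the modifier subunit of glutathione synthesis, fell to a fold of 0.6199 (limma adjusted p = 0.00109) while its catalytic partner Gclc did not pass the test (log2 -0.31, limma adjusted p = 0.487). Nqo1, the textbook NRF2 target, was at 287, 179.9, 196 and 205 in the control libraries and 254, 303, 272 and 198 in the ethanol libraries (log2 0.25 ± 0.17 SE, limma adjusted p = 0.308).

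In the integrated stress response kinases that sense amino acid shortage, unfolded proteins, viral RNA or mitochondrial trouble slow translation and favor the factor ATF4, which turns on amino acid and folate enzymes and the mitokines GDF15 and FGF21. Of 32 tested genes of this response 13 rose and 1 fell, with a median log2 fold change of 0.73 (6 and 1 without ethanol libraries 1 and 4; 25 and 0 in wild type, median 1.07). Trib3, a pseudokinase induced by ATF4, was at 198, 111, 199 and 172 and then 590.1, 671, 956 and 810.3. Trib3 rose 4.48-fold (log2 2.16 ± 0.46 SE, limma adjusted p = 0.00401). Psat1, of serine synthesis, was at 56.98, 63.4, 64.5 and 71.1 and then 170.2, 199, 352 and 262 (log2 1.87 ± 0.36 SE, limma adjusted p = 0.00192), with libraries 3 and 4 above 1 and 2. Mthfd2, a mitochondrial folate enzyme, rose 3.01-fold (limma adjusted p = 6.37e-04), Nupr1 3.34-fold (limma adjusted p = 3.27e-04) and Slc3a2, the partner of amino acid exchangers, 2.24-fold (limma adjusted p = 1.71e-04). Shmt2, which supplies mitochondrial one-carbon units, was the member that fell, to a fold of 0.737 (limma adjusted p = 0.00591).

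The mitokines and stress factors were less settled. Gdf15 was at 405, 99.4, 117 and 72.04 and then 727, 749, 412 and 745 (log2 2.23 ± 0.56 SE, limma adjusted p = 0.0107), with control library 1 the highest control and near ethanol library 3; the call was lost without ethanol libraries 1 and 4 (limma adjusted p = 0.107). Fgf21 was at 238, 84.3, 224 and 86.4 and then 1028, 312, 378 and 554 and did not pass the test (log2 1.85 ± 0.65 SE, limma adjusted p = 0.0561), nor did Ddit3, which encodes CHOP (log2 1.23, limma adjusted p = 0.0633). Atf3 was at 297, 137, 305 and 151 and then 1157, 897, 977 and 1028. Atf3 rose 4.83-fold (log2 2.27 ± 0.63 SE, limma adjusted p = 0.0193), a call lost without control library 2 (limma adjusted p = 0.0604) and without ethanol libraries 1 and 4 (limma adjusted p = 0.128). Its promoter (RefSeq, GRCm38.p6, chr1:191183284-191183583, minus strand) is given 5′ to 3′ because it held the ATF4 element TGANGCAA, searched on both strands and here in capitals on the reverse one.
Atf3: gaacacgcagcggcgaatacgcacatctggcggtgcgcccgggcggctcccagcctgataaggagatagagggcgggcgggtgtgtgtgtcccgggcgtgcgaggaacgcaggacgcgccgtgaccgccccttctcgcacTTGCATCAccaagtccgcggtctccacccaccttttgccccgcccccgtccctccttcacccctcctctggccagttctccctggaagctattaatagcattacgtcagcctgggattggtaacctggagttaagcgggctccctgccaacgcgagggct
This element matched in 2 of 12 risen genes of the list with a promoter in the table and in 3.66% of the 9760 tested genes with one. In the unfolded protein response of the endoplasmic reticulum 1 of 28 genes rose and 3 fell, and neither the chaperone gene Hspa5 (log2 0.53, limma adjusted p = 0.147) nor Xbp1 (log2 -0.003, limma adjusted p = 0.996) passed the test.

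Immediate early genes, which cells transcribe within minutes of a stimulus, rose for 14 of 20 with no fall and a median log2 fold change of 1.22 (9 and 0 without ethanol libraries 1 and 4; 15 and 0 in wild type, median 1.61). Egr1 (ENSMUSG00000038418, chromosome 18, 34859823 to 34864984) was at 154, 114, 290.0 and 321 and then 2096, 3151, 824 and 1308. Egr1 rose 8.09-fold (log2 3.02 ± 0.63 SE, limma adjusted p = 0.00352). Fos was at 14.5, 17.04, 29.5 and 26.1 and then 155, 117, 185 and 228 (log2 2.94 ± 0.40 SE, limma adjusted p = 1.44e-04), and the nuclear receptor gene Nr4a1 at 14.5, 21.8, 21.2 and 14.4 and then 92.5, 80.7, 82.4 and 98.2 (log2 2.26 ± 0.28 SE, limma adjusted p = 6.84e-05). Ethanol libraries 1 and 2 were the highest for Egr1 but not for Fos or Nr4a1. Klf6 rose 4.08-fold (limma adjusted p = 0.00125). Jun rose 2.93-fold (limma adjusted p = 0.0126), a call lost without control library 2 (limma adjusted p = 0.0502) and without ethanol libraries 1 and 4 (limma adjusted p = 0.138).

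Of 21 p53 targets and growth arrest genes 5 rose and none fell (2 and 0 without ethanol libraries 1 and 4). Beside Cdkn1a they included Btg2, 4.61-fold (limma adjusted p = 0.01), and Trp53inp1, 3.86-fold (limma adjusted p = 0.0128), whose calls were lost without ethanol libraries 1 and 4 (limma adjusted p = 0.103 and 0.0617). The p53 targets Mdm2 and Ccng1 had log2 fold changes of 0.21 (limma adjusted p = 0.181) and 0.101 (limma adjusted p = 0.588), with overlapping groups. Among glucocorticoid-responsive genes 4 of 15 rose, 2 without control library 4, ethanol library 1 or ethanol library 2, and 8 without wild-type ethanol library 3. Fkbp5, a chaperone of the glucocorticoid receptor, was at 763, 845, 1742 and 607 and then 2677, 5158, 2306 and 2489.5. Fkbp5 rose 3.28-fold (log2 1.71 ± 0.30 SE, limma adjusted p = 9.03e-04), highest in ethanol library 2, while Tsc22d3 was at 1452, 1566, 465 and 469 and then 769, 1775, 522 and 542 (limma adjusted p = 0.905).

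Protein-coding genes of mitochondrial DNA took 3.18, 2.90, 2.28 and 2.83% of the control libraries and 3.55, 3.74, 3.79 and 3.83% of the ethanol libraries as a share of all assigned reads. All ethanol values were above all controls (3.73 ± 0.127% against 2.79 ± 0.374%, SD, n = 4 each; exact two-sided permutation p = 0.0286, the smallest that 4 against 4 allows), and wild type went from 3.51 to 3.85% to 4.57 to 5.28%. Of 13 tested transcripts from mitochondrial DNA 3 rose, 10 more had a positive fold change and none fell, with a median of 0.41. The large ribosomal RNA mt-Rnr2 was at 35672, 24794, 17209 and 23773 and then 53185, 53777, 62630.3 and 60509. mt-Rnr2 rose 2.34-fold (log2 1.23 ± 0.18 SE, limma adjusted p = 2.46e-04). Among the messengers mt-Nd5, a subunit of complex I, rose 1.56-fold (limma adjusted p = 0.0144), a call lost without ethanol libraries 1 and 4 (limma adjusted p = 0.091), while mt-Co1 and mt-Cytb did not pass the test (log2 0.44, limma adjusted p = 0.0694 and log2 0.44, limma adjusted p = 0.0954).

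Of 77 genes of the mitochondrial ribosome 20 fell and none rose, with a median log2 fold change of -0.24 (7 without ethanol libraries 1 and 4; 17 falls and 3 rises in wild type). Mrpl18 was at 648, 535, 401 and 475 and then 319, 279.9, 266 and 299. Mrpl18 fell to a fold of 0.574 (log2 -0.802 ± 0.14 SE, limma adjusted p = 0.00121). The count rested on single libraries: it was 8 without control library 1, 9 without control library 2, 10 without ethanol library 2 and 12 without ethanol library 3. Mean log2 levels of this list were 8.58 and 8.43 in control libraries 1 and 2, 8.21 and 8.17 in control libraries 3 and 4, and 8.03 to 8.11 in the ethanol libraries. Of 78 nuclear respiratory chain genes 9 fell, near the 9.01% of all genes, among them Ndufs8 of complex I (0.709, limma adjusted p = 0.00842). That count was 2 without control library 1, control library 2 or ethanol library 4, 3 without ethanol library 3, 5 without ethanol library 2, and 19 and 22 without control libraries 3 and 4. Without ethanol libraries 1 and 4 it was 1. Of 19 genes of mitochondrial fission and fusion 2 rose and 3 fell, none of which was called without ethanol libraries 1 and 4; Fis1, an outer membrane adaptor of fission, fell to a fold of 0.731 (limma adjusted p = 0.0137; without those libraries 0.097).

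Type I interferon induces a wide set of antiviral genes, and interferon gamma induces guanylate-binding proteins, the immunoproteasome and class I molecules. Of 65 tested interferon-stimulated genes 25 fell and 1 rose, with a median log2 fold change of -0.47 (10 and 0 without ethanol libraries 1 and 4; 16 falls without ethanol library 2; 44 and 2 in wild type, median -0.68). Isg15, which encodes a modifier related to ubiquitin (ENSMUSG00000035692, chromosome 4, 156199424 to 156200818), was at 1277, 935, 938 and 1224 in the control libraries and 619.6, 386, 716 and 680.4 in the ethanol libraries. Isg15 fell to a fold of 0.5403 (log2 -0.89 ± 0.18 SE, limma adjusted p = 0.00254). Ifi47, an immunity-related GTPase gene, was at 691, 771, 651 and 993 and then 350.1, 219.7, 398 and 294 (log2 -1.31 ± 0.16 SE, limma adjusted p = 6.59e-05), and Oasl2 at 1271, 1226, 1192 and 2249 and then 474, 438, 744 and 690.0 (log2 -1.32 ± 0.23 SE, limma adjusted p = 8.52e-04). Ethanol library 2 was the lowest for each of these 3 genes. Rsad2, which encodes the antiviral enzyme viperin, was the member that rose, from 1427, 1038, 1538 and 1091 to 2153, 1924, 2509 and 2728 (log2 0.88 ± 0.30 SE, limma adjusted p = 0.0479). Its call was lost without ethanol libraries 1 and 4 (limma adjusted p = 0.219) and without any 1 of control libraries 1, 2 and 4, the 4 ethanol libraries or the 4 wild-type control libraries (limma adjusted p from 0.0565 to 0.124). The mean log2 level of the list was 9.195 to 9.53 in the control libraries, 8.87, 8.95 and 9.07 in ethanol libraries 4, 1 and 3 and lower in ethanol library 2, 7.04 to 7.32 in wild-type controls and 6.14 to 6.72 in wild-type ethanol libraries. The ethanol libraries labelled knockout thus stayed above every wild-type library. In whole liver, fewer cells of a type and less RNA per cell cannot be told apart.

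Genes of class I antigen presentation fell for 11 of 19 with no rise and a median of -0.41 (7 without ethanol libraries 1 and 4; 8 in wild type). Psmb8 and Psmb9 encode catalytic subunits that interferon gamma swaps into the proteasome. Psmb9 (ENSMUSG00000096727, chromosome 17, 34181987 to 34187764) was at 683, 565, 499 and 667 and then 261, 237, 321 and 328. Psmb9 fell to a fold of 0.475 (log2 -1.07 ± 0.15 SE, limma adjusted p = 1.58e-04), and Psmb8 fell to 0.545 (limma adjusted p = 9.74e-05). The transporter genes Tap1 and Tap2 and the class I chain genes H2-Q4, H2-Q6 and H2-Q7 were also among the falls, which are close copies in the case of the H2-Q genes. The light chain gene B2m and the classical heavy chain gene H2-D1 did not pass the test: B2m had a log2 fold change of -0.16 (limma adjusted p = 0.349) and H2-D1 of -0.07 (limma adjusted p = 0.698). Of 38 proteasome genes 13 fell and 1 rose (4 and 1 without ethanol libraries 1 and 4), a count that was 6 without control library 1 or ethanol library 4 and 8 without control library 2 or ethanol library 2. Psmb8 and Psmb9 are on this list and on the class I list. The chemokine gene Cxcl9, induced by interferon gamma, was at 639, 578, 327 and 629 and then 253, 221, 134 and 170.3. Cxcl9 fell to a fold of 0.361 (log2 -1.47 ± 0.29 SE, limma adjusted p = 0.00237). Nlrp6, an inflammasome sensor gene, was at 2189, 1948, 1981 and 2242 and then 1006, 1054, 953 and 1003 (log2 -1.06 ± 0.09 SE, limma adjusted p = 3.62e-06), with narrow ranges in both groups, and Gsdmd, the pore former of pyroptosis, fell to a fold of 0.687 (limma adjusted p = 0.00273). Of 19 tested genes of nucleic acid sensing and the inflammasome 2 fell and 1 rose, with a median log2 fold change of -0.12. Of 13 tested chemokine genes 2 fell and 1 rose, with a median of 0.12.

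Among 17 tested genes of the Kupffer cell and macrophage list there were 1 rise and 2 falls, none of them called without ethanol libraries 1 and 4. That list also held Cdh5, an endothelial gene that is on the sinusoidal endothelial list too. Wild type gave 1 rise and 11 falls, and the difference was called for 1 of the 17. Clec4f, found on Kupffer cells alone in mouse liver, was at 1168, 1449, 1253 and 1332 and then 1232, 1156, 1067 and 847 (limma adjusted p = 0.399). Mpeg1, of a pore former of phagocytes, was at 2137, 3274, 4831 and 4623 and then 2183, 1955, 1387 and 1822 (log2 -0.96 ± 0.28 SE, limma adjusted p = 0.0233), with overlapping groups; its call was lost without control library 3, control library 4, ethanol library 3, or ethanol libraries 1 and 4 (limma adjusted p = 0.0581, 0.0657, 0.068 and 0.0766). The summed level of 6 Kupffer cell markers was 2729 to 3923 in the control and 2111 to 3319 in the ethanol libraries, and that of 7 general leukocyte markers 188 to 326 and 129 to 207. Both sums overlapped between the groups, and their part in the fall of interferon-stimulated genes was not tested. Class II genes gave no call of 8, all with negative log2 fold changes (median -0.38). Wild type gave 7 falls, and a difference of the responses was called for none of them. None of 4 neutrophil genes and none of 5 T, NK and B cell genes passed limma's test.

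**Figure D2:**
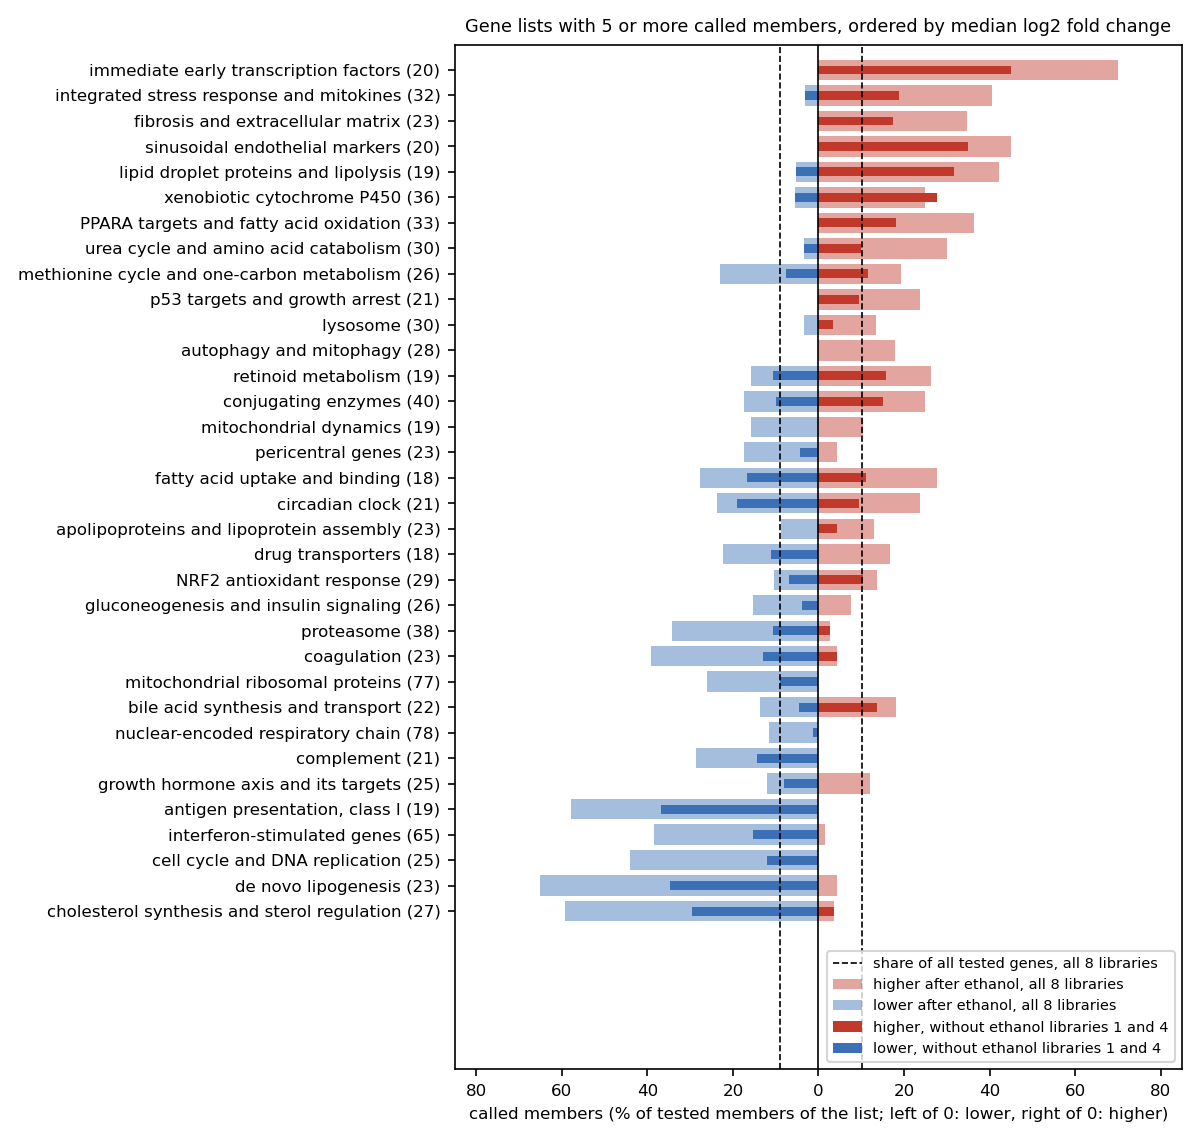
Share of the tested members of each list that rose (right) or fell (left) after ethanol in the libraries labelled knockout, for lists with 5 or more called members; the number tested stands in brackets. Pale bars use all 8 libraries, dark bars leave out ethanol libraries 1 and 4, and dashed lines mark the 10.2% and 9.01% of all tested genes; early genes lie at the top and sterol and lipogenic genes at the bottom.

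Genes of secreted liver proteins moved in both directions. Acute-phase genes, made by hepatocytes under interleukin-6 and interleukin-1, gave 3 rises and 1 fall of 25 (5 rises without control library 3). In wild type 12 rose and 1 fell, and the difference was called for 1 of the 25. Orm3, an orosomucoid gene, was at 67.3, 94.7, 174 and 119 and then 892, 1305, 976 and 853. Orm3 rose 9.17-fold (log2 3.198 ± 0.36 SE, limma adjusted p = 3.00e-05). Saa3, the serum amyloid form made by macrophages and other cells, was at 453, 393, 357 and 276 and then 114, 99.1, 46.7 and 153. Saa3 fell to a fold of 0.263 (log2 -1.93 ± 0.39 SE, limma adjusted p = 0.00275). Saa1 was at 2480.3, 1787, 38416 and 2667 and then 19661, 2177, 1029 and 767 and Lcn2, lipocalin, at 561, 441, 5526 and 696 and then 8466, 5160.3, 3784 and 1493; both overlapped between the groups and neither passed the test (limma adjusted p = 0.679 and limma adjusted p = 0.147). Control library 3 and ethanol library 1 held the high values of Saa1. Cd14, the coreceptor for bacterial endotoxin, was at 63.2, 54.9, 38.7 and 58.5 and then 237, 324, 279 and 364. Cd14 rose 5.52-fold (log2 2.47 ± 0.41 SE, limma adjusted p = 6.70e-04).

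Of 21 complement genes 6 fell and none rose (3 and 0 without ethanol libraries 1 and 4). C9, of the pore that lyses bacteria, fell to a fold of 0.608 (limma adjusted p = 4.41e-04), and Mbl2, of the lectin pathway, to 0.575 (limma adjusted p = 0.00286). Of 23 coagulation genes 9 fell and 1 rose (3 and 1 without ethanol libraries 1 and 4; 4 falls without ethanol library 1, and 5 without ethanol library 3 or 4). Factor genes F7 and F10 fell to 0.636 (limma adjusted p = 6.25e-04) and 0.664 (limma adjusted p = 7.53e-04), and Klkb1, of plasma prekallikrein, to 0.545 (limma adjusted p = 6.41e-04). All of these named falls were smaller than 2-fold.

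Amino acid genes rose for 9 of 30 and fell for 1 in the urea cycle and catabolism list (3 and 1 without ethanol libraries 1 and 4; 5 rises without ethanol library 2). Aass was at 2503, 2684, 5807 and 2840.2 and then 18483, 27286, 11154 and 19355 (log2 2.48 ± 0.40 SE, limma adjusted p = 5.55e-04), with control library 3 apart from the other controls. Cps1, the entry enzyme of the urea cycle, was at 28119, 34318, 63397 and 52293 and then 87816, 117321, 68477 and 73989.6. Cps1 rose 2.01-fold (log2 1.01 ± 0.23 SE, limma adjusted p = 0.00633), and Got1, cytosolic aspartate aminotransferase, rose 3.74-fold (limma adjusted p = 5.85e-04). Ethanol library 2 was the highest for all 3 genes. In methionine and one-carbon metabolism 5 of 26 rose and 6 fell (3 and 2 without ethanol libraries 1 and 4). Mat1a, which makes S-adenosylmethionine in the adult liver (ENSMUSG00000037798, chromosome 14, 41105035 to 41124412), was at 35692, 33570.5, 55956 and 31089.8 and then 133602, 151282, 87835 and 97166. Mat1a rose 3.02-fold (log2 1.59 ± 0.25 SE, limma adjusted p = 4.44e-04). Gamt, which spends that methyl donor on creatine, fell to a fold of 0.497 (limma adjusted p = 0.0011), and Bhmt did not pass the test (log2 0.47 ± 0.31 SE, limma adjusted p = 0.297).

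Some glucose genes divided the ethanol libraries. G6pc, the last enzyme of glucose release, was at 5463, 8958, 8793 and 6564 and then 3813, 3059.8, 921 and 1708. G6pc fell to a fold of 0.284 (log2 -1.82 ± 0.41 SE, limma adjusted p = 0.00545), with libraries 3 and 4 the lowest. Igfbp1, an insulin-repressed secreted protein gene, was at 1315, 984, 754 and 404 and then 10588, 10810.0, 1545 and 2148 (log2 2.48 ± 0.83 SE, limma adjusted p = 0.0466), where ethanol libraries 1 and 2 were several times above 3 and 4. Its call was lost without any 1 of the 4 control libraries, ethanol libraries 1 and 2 or the 4 wild-type control libraries (limma adjusted p from 0.0526 to 0.139), and without ethanol libraries 1 and 4 (limma adjusted p = 0.18). Pck1, the rate-limiting enzyme of gluconeogenesis, was at 25635, 21635, 6084 and 8809 and then 43944, 48819, 13775 and 18031 and did not pass the test (limma adjusted p = 0.142).

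Clock output genes fell while the core activators rose. CLOCK and BMAL1, the product of Arntl, drive the daily rhythm of PAR-domain factors such as DBP and TEF. Of 21 tested genes 5 rose and 5 fell (2 and 4 without ethanol libraries 1 and 4; 3 falls without control library 4 or ethanol library 3). Dbp (ENSMUSG00000059824, chromosome 7, 45705088 to 45710203) was at 1092, 656, 581 and 937 and then 191, 95.01, 296 and 181. Dbp fell to a fold of 0.225 (log2 -2.16 ± 0.44 SE, limma adjusted p = 0.00293), and Tef fell to 0.633 (limma adjusted p = 0.0012) and Nr1d2, a clock repressor, to 0.616 (limma adjusted p = 0.00235). Clock rose 2.05-fold (limma adjusted p = 0.00126). Arntl was at 31.1, 12.3, 46.96 and 20.7 and then 126, 126, 48.3 and 96.2 (log2 1.86 ± 0.46 SE, limma adjusted p = 0.01), a call lost without ethanol libraries 1 and 4 (limma adjusted p = 0.113). Control library 3 was the highest control for both activators, and Per1 overlapped between the groups (limma adjusted p = 0.188). The hour of collection is not given for any library, so the hour and the ethanol treatment cannot be told apart for these genes.

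Growth hormone targets included the largest log2 fall of the genes named here. Hsd3b5, a steroid dehydrogenase of male mouse liver (ENSMUSG00000038092, chromosome 3, 98618634 to 98630252), was at 313, 612, 863 and 1278 and then 17.7, 7.15, 7.13 and 27.9. Hsd3b5 fell to a fold of 0.0203 (log2 -5.62 ± 0.54 SE, limma adjusted p = 6.29e-06), and in wild type its log2 fold change was -7.26. Ghr, the growth hormone receptor gene, fell to a fold of 0.674 (limma adjusted p = 0.00442), and Igf1 rose 1.46-fold (limma adjusted p = 0.0114), a call lost without ethanol libraries 1 and 4 (limma adjusted p = 0.103). Of the 25 tested genes of this axis 3 rose and 3 fell, with 1 rise without ethanol library 1, 6 falls without control library 1 and 5 without wild-type ethanol library 4. Among retinoid genes 5 of 19 rose and 3 fell (3 and 2 without ethanol libraries 1 and 4). Cyp26b1, a retinoic acid hydroxylase (ENSMUSG00000063415, chromosome 6, 84571414 to 84593908), was at 66.3, 96.6, 52.5 and 74.7 and then 254, 271, 638 and 485. Cyp26b1 rose 5.33-fold (log2 2.41 ± 0.36 SE, limma adjusted p = 3.33e-04), with libraries 3 and 4 above 1 and 2, and Bco1, which splits carotene, rose 2.696-fold (limma adjusted p = 6.25e-04). The related hydroxylase gene Cyp26a1 was at 404, 384, 77.3 and 355 and then 49.2, 102, 209.8 and 345, with no call (limma adjusted p = 0.334) and overlapping groups. Gulo, of vitamin C synthesis, fell to a fold of 0.575 (limma adjusted p = 2.08e-04).

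Endothelial genes of the liver sinusoid rose for 9 of 20 with no fall and a median log2 fold change of 0.42 (7 and 0 without ethanol libraries 1 and 4; 14 and 2 in wild type). These fenestrated cells clear hyaluronan and make the Wnt ligands that pattern the lobule. Lyve1, the hyaluronan receptor (ENSMUSG00000030787, chromosome 7, 110850607 to 110863239), was at 67.3, 109.8, 122 and 122 and then 383, 739, 391 and 599.5. Lyve1 rose 4.91-fold (log2 2.297 ± 0.33 SE, limma adjusted p = 2.46e-04). The ligand gene Wnt9b was at 17.6, 5.68, 8.29 and 7.204 and then 27.5, 78.7, 36.4 and 66.4 (log2 2.31 ± 0.39 SE, limma adjusted p = 7.98e-04), and Wnt2 at 34.2, 37.9, 21.2 and 30.6 and then 49.2, 82.8, 89.5 and 84.7 (log2 1.27 ± 0.27 SE, limma adjusted p = 0.0038), both lowest in ethanol library 1. Pecam1, found on endothelium at large, rose 1.88-fold (limma adjusted p = 6.71e-04), while Stab2, a defining scavenger receptor of these cells, was at 253, 364, 460.4 and 440.3 and then 372, 394, 447 and 354 (limma adjusted p = 0.8). The pericentral genes that depend on Wnt gave 1 rise and 4 falls of 23, and 1 or 2 falls without most single libraries. Glul, glutamine synthetase, fell to a fold of 0.657 (limma adjusted p = 0.0233), a call lost without control library 2, ethanol library 3, ethanol library 4, or ethanol libraries 1 and 4 (limma adjusted p = 0.0659, 0.0655, 0.0703 and 0.105).

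Matrix genes rose for 8 of 23 with no fall (4 without ethanol libraries 1 and 4; 5 without ethanol library 2). Thbs1, thrombospondin, was at 6.22, 27.5, 6.45 and 17.1 and then 71.8, 81.7, 64.1 and 114. Thbs1 rose 6.35-fold (log2 2.67 ± 0.52 SE, limma adjusted p = 0.00223). The basement membrane collagen gene Col4a1 rose 2.19-fold (limma adjusted p = 6.05e-04) and the membrane protease gene Mmp14 2.101-fold (limma adjusted p = 9.49e-05). Col1a1, the collagen of scars, was at 90.1, 134, 125 and 178 and then 155, 149, 135 and 255 and did not pass the test (limma adjusted p = 0.246). Summed stellate cell markers were 3637 to 5029 in the control and 5164 to 5699 in the ethanol libraries, without overlap, and their part in the matrix genes was not tested.

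Cell cycle and DNA replication genes fell for 11 of 25 with no rise and a median of -0.52 (3 without ethanol libraries 1 and 4, and 9 in wild type). Cdt1, which loads the replicative helicase on DNA, was at 84.96, 79.5, 51.6 and 105 and then 11.8, 17.4, 26.9 and 28.9. Cdt1 fell to a fold of 0.267 (log2 -1.91 ± 0.37 SE, limma adjusted p = 0.00233). The helicase subunit gene Mcm4 was at 137, 137, 42.4 and 140.5 and then 31.5, 20.4, 38.01 and 37.5 (log2 -1.701 ± 0.37 SE, limma adjusted p = 0.0044), and Mcm6 at 224, 214, 62.6 and 208 and then 45.2, 51.1, 59.4 and 32.7 (log2 -1.76 ± 0.36 SE, limma adjusted p = 0.00287). Control library 3 was near the ethanol libraries for both, and the call of Mcm6 was lost without ethanol libraries 1 and 4 (limma adjusted p = 0.0553). Markers of dividing cells did not pass the test, with Mki67 at 59.1, 26.5, 49.7 and 63.9 and then 44.3, 83.8, 77.6 and 37.5 (limma adjusted p = 0.687) and Top2a at a log2 fold change of 0.23 (limma adjusted p = 0.745).

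Of 74 cytosolic ribosomal protein genes 2 fell and none rose. Among 28 ribosome biogenesis genes 2 fell and none rose. Wild type gave 15 rises and 1 fall of these 28, and the difference was called for 1. Cytosolic heat shock genes gave 3 rises of 22, lysosomal genes 4 rises and 1 fall of 30, and hypoxia-responsive genes 3 rises and 1 fall of 15, beside the 19.2% of all tested genes that were called. The 5 rises among 28 autophagy and mitophagy genes became 0 without control library 2 (limma, 0 of 28 at an adjusted p under 0.05) or without ethanol libraries 1 and 4, 3 without control library 1, control library 4 or ethanol library 3, and 2 without ethanol library 2 or 4.

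**Figure D3:**
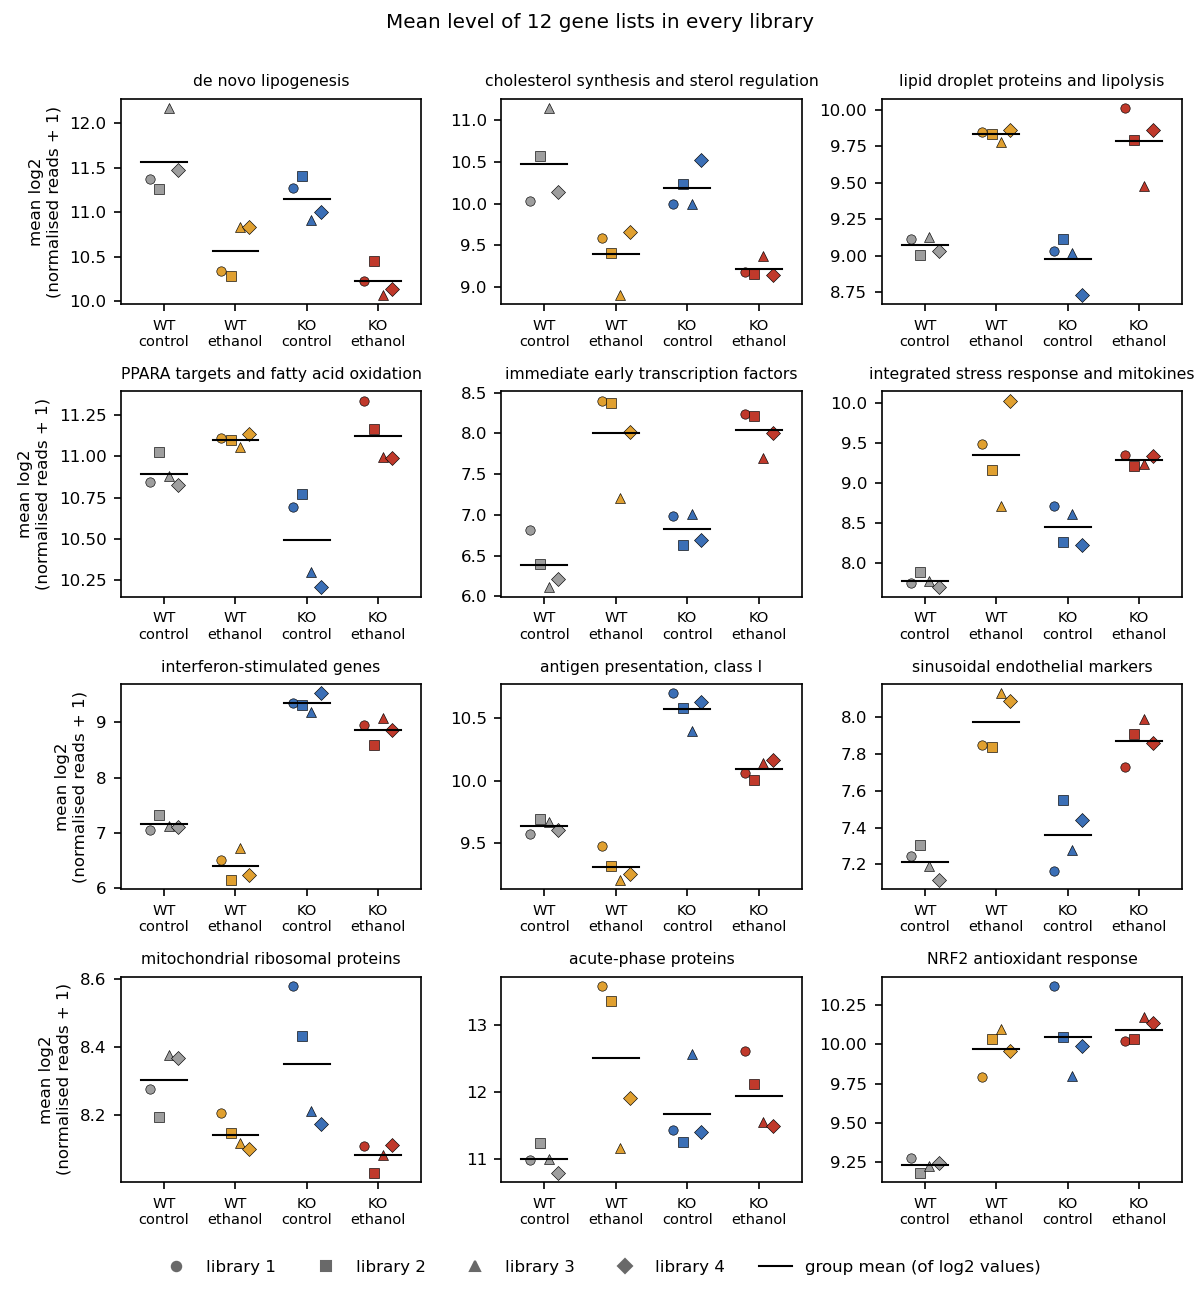
Mean log2(normalised reads + 1) of 12 gene lists in all 16 libraries, by genotype and treatment; marker shapes give the library number and lines the group means. Lipogenic and sterol lists lie lower in both ethanol groups, and interferon-stimulated and class I lists lie higher in both groups labelled knockout than in either wild-type group.

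The wild-type libraries of the series give the measure of what was shared. With the same fit ethanol changed 5032 genes there (38.0%), 2508 higher (18.9%) and 2524 lower (19.0%). Of the 2543 genes called in the libraries labelled knockout, 1960 were called in the same direction in wild type, which is 77.1% of the first list and 39.0% of the second. Another 578 were not called in wild type, and 5 were called in the opposite direction, namely Ehhadh, Exoc6b, Rab34, Ugt2b35 and Zfp667, named after their values were seen. The log2 fold changes of the genotypes, which share no library, correlated over the 13256 genes with a Pearson coefficient of 0.767 and a Spearman coefficient of 0.716; genes are not independent of each other, so no p is given. The median size of the log2 fold change was 0.261 in the libraries labelled knockout and 0.341 in wild type.

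**Figure D4:**
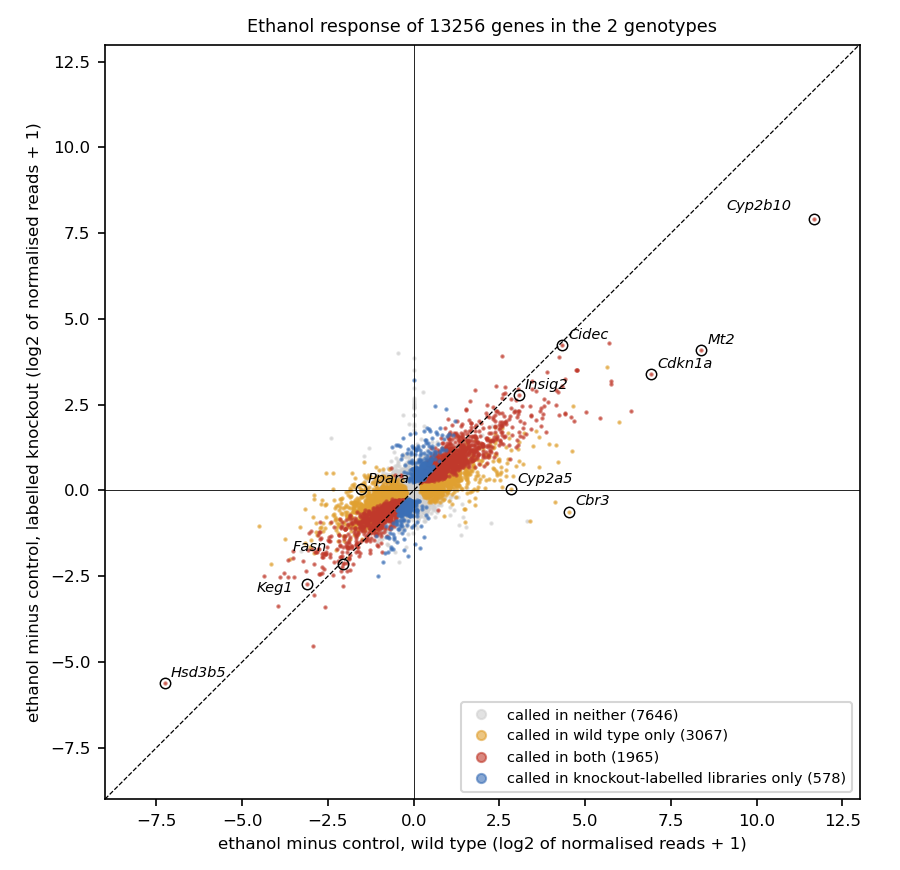
Log2 fold change after ethanol in the libraries labelled knockout (vertical axis) against that in wild type (horizontal axis) for 13256 genes, colored by where the gene was called, with the line of equal response dashed. Most genes called in both lie along the line, while Cyp2b10, Mt2 and Cdkn1a lie below it and Cyp2a5 and Cbr3 near the horizontal axis. A difference of the responses was not called for Mt2.

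A call in 1 genotype only is not a difference between them, so the difference of the responses was tested itself. It was called for 46 genes (0.347%), 19 with a more positive and 27 with a more negative response in the libraries labelled knockout. In 43 of the 46 the knockout response was the smaller in size. These genes were chosen by that same difference, and the median size over all tested genes was also smaller (0.261 against 0.341). The 43 are thus a description and carry no test. The count of 46 genes was unstable. Limma called 0 genes without ethanol libraries 1 and 4 (1210 at an unadjusted p under 0.05, against 1772 with all libraries). Single libraries moved the count of 46 between 8 without ethanol library 1 and 215 without wild-type ethanol library 3. It was 9 without ethanol library 4 and 16 without ethanol library 2. Without control library 1, 2 or 4 it was 29, 19 and 28 in that order, without wild-type ethanol library 1 or 2 it was 19 and 12, and without wild-type control library 1, 2 or 4 it was 18, 22 and 25. By tool it was 30 in edgeR and 265 in DESeq2. Every gene named for such a difference carries that limit.

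The 10 genes with the smallest p for the difference were examined by library. Cyp2a5 (ENSMUSG00000005547, chromosome 7, 26835305 to 26843548) was at 15249, 11075, 5403 and 8976 in the control and 8842, 10368, 9792 and 10272 in the ethanol libraries labelled knockout, and rose in wild type from 2056, 2343, 2674 and 2553 to 15471, 22664, 18875 and 12750.2 (difference in log2 -2.79 ± 0.33 SE, limma adjusted p = 0.00264). Nqo1 rose in wild type from 71.98, 57.7, 66.9 and 50.9 to 209, 235, 279 and 211, and was at 287, 179.9, 196 and 205 in the control libraries labelled knockout, all above the wild-type controls (difference -1.65 ± 0.24 SE, limma adjusted p = 0.0105). Cbr3, a carbonyl reductase gene, was at 705, 398, 66.3 and 183 and then 123, 126, 230.4 and 172 in the libraries labelled knockout and at 1.97, 6.96, 3.403 and 2.08 and then 87.2, 117, 173 and 49.5 in wild type (difference -5.15 ± 0.78 SE, limma adjusted p = 0.0116). Gsta2, Raet1d and Tuba8 gave differences of -2.97, -2.03 and -2.23, each with a rise in wild type and no call in the libraries labelled knockout. Cyp2b10, Abcc4 and Dusp8, a phosphatase gene, rose in both genotypes and less in the libraries labelled knockout (differences -3.74, -2.16 and -3.301). Ifi27, an interferon-stimulated gene of the mitochondrial membrane, fell in wild type (log2 -1.42) and had a log2 fold change of -0.28 in the libraries labelled knockout (limma adjusted p = 0.116). In 41 of the 46 genes the mean of the knockout controls was displaced from the wild-type controls in the direction of the wild-type ethanol response. Since both control groups enter the tested difference, that count is a description of how these genes were chosen and carries no test.

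**Figure D5:**
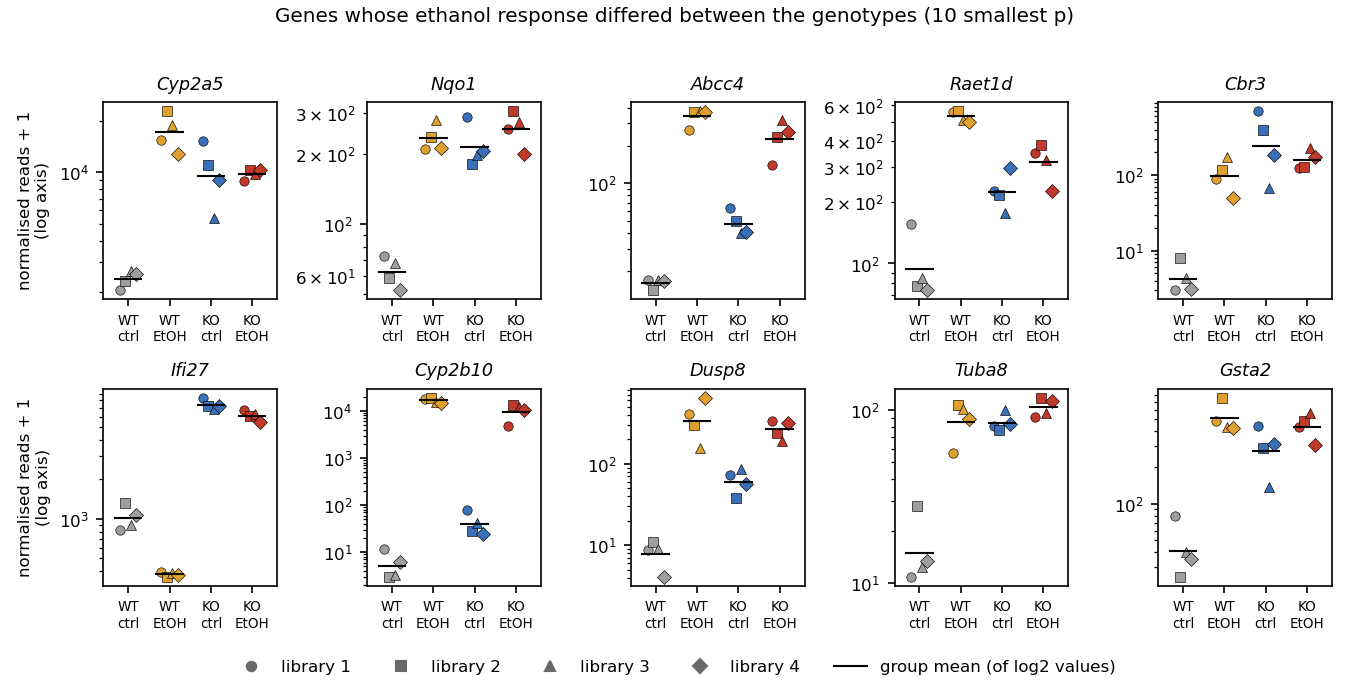
Normalised reads + 1 on log axes in all 16 libraries for the 10 genes with the smallest p for the difference between the ethanol responses, with library numbers as marker shapes and group means of log2 values as lines. For Cyp2a5, Nqo1, Cbr3, Tuba8 and Gsta2 the control libraries labelled knockout lie above all wild-type controls.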

How the data were processed

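RNA from 16 mouse liver samples in 4 groups of 4 was sequenced as single reads, per the labels' protocols. The deposited signal values are the authors' read counts per gene after scaling each library by a factor of its own. The submitters' processing notes name HISAT2, HTSeq, edgeR and the build GRCm38; which annotation and strand setting served, and which tool set the scaling, is not given in the sources used here. Whole reads were recovered from the steps of each column (100.0% of values whole within 0.01 reads), giving 11425136 to 13864862 reads and size factors of 0.814 to 1.26. These size factors equalled median-of-ratios factors, the kind DESeq2 uses, computed from the recovered reads (largest ratio 1.0). Of 27288 gene identifiers 27242 matched a symbol.

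Genes with a mean of at least 10 over 16 libraries were kept; the members nearest that floor had means of 10.0 inside (10.011) and 9.996 outside. Log2(value + 1), which understates changes of low genes, was fitted with limma 3.58.1 in R 4.3.3, as 1 fit of 4 group means with an intensity trend and Benjamini-Hochberg adjustment. The fit was tested on simulated data. Alternatives were edgeR 4.0.16 and DESeq2 1.42.0 on the recovered reads, TMM factors, other pseudocounts and floors, no trend, the compared groups only, a replicate block, and leaving out libraries. Groups come from the labels. Genes with near-identical copies, overlapping genes and antisense partners are uncertain. Promoter sequences are from RefSeq (GRCm38.p6).

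The comparison, gene lists and tests were chosen with earlier results of these data known. Named genes were Dnm1l, the 15 largest rises and 15 largest falls among the higher-expressed called genes with groups that did not overlap and the same call without ethanol libraries 1 and 4, the first 3 genes and the 4 smallest p of each list, and the 10 smallest p for the difference. Acaca, Atf3, Fdft1, Gstm3, Igfbp1, Klf6, Lpin2, Mid1ip1, Mvd, Pklr, Plin5, Ppara, Shmt2, Slc7a11, Trib3, Ugt2b38 and the class I genes Tap1, Tap2, H2-Q4, H2-Q6 and H2-Q7 were outside that rule and were chosen after their values were seen. Some genes that the rule named are not reported here. Replicate numbers were not used to pair control with ethanol libraries.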

Additional observations from a re-analysis of the deposited data

Results flagged for a closer look

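Of 370 sets of 4 values examined for the named genes, 26 had 1 library far from the other 3, with a gap over Dixon's critical value; chance gives such a gap in about 1 in 20 sets. Values are normalised reads in libraries labelled knockout. Control library 3 was the far one most often. It was high for Mt2 (988), Mt1 (9553), Aass (5807), Saa1 (38416) and Lcn2 (5526), and low for Cyp26a1 (77.3), Mcm4 (42.4) and Mcm6 (62.6). Control library 1 was low for Hcn3 (446.5) and high for Vldlr (11.4), Gdf15 (405.1) and Ddit3 (465.2). Control library 2 was low for Plin3 (613.5), and control library 4 was high for Oasl2 (2249) and H2-D1 (15439).

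Among the ethanol libraries, library 1 was low for Cyp1a2 (4493) and Wnt2 (49.2) and high for Xbp1 (4257) and Saa1 (19661). Library 2 was high for Por (13786), Acss3 (434.2) and Fkbp5 (5158). Library 3 was high for Acnat2 (1639) and low for Gdf15 (411.8), and library 4 was high for Ugt2b38 (20.2) and Col1a1 (255.0).

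Marker sums of other tissues stood above the control libraries in 2 of the ethanol libraries. The pancreatic acinar sum was 13613 normalised reads in library 1. In library 4 the red cell sum was 6166 and the fat cell sum 171.3, the last without Car3, which hepatocytes express too and which was set aside after its values were seen.

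The difference of the ethanol responses, knockout-labelled minus wild type in log2, passed limma's test for 15 named genes. It was negative for Cyp2a5 (-2.79), Nqo1 (-1.65), Abcc4 (-2.16), Raet1d (-2.03), Cbr3 (-5.15), Cyp2b10 (-3.74), Dusp8 (-3.30), Tuba8 (-2.23), Gsta2 (-2.97), Cdkn1a (-3.53), Orm3 (-2.57) and Gstm3 (-2.66). It was positive for Ifi27 (1.14), Ppara (1.57) and the lysozyme gene Lyz2 (1.54). None of these differences was called without ethanol libraries 1 and 4.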

How the results depend on the processing

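The knockout-labelled ethanol response gave 2081 to 3028 called genes over the other tools, scalings, floors, pseudocounts and fits, and 1745 to 2947 with any 1 library left out. Without ethanol libraries 1 and 4 it gave 1003 genes, 578 higher and 425 lower. The fallen genes ranged from 762 without control library 2 to 1424 without control library 3. The difference between the genotypes, 46 genes, was 265 in DESeq2, 30 in edgeR, 16 without the trend and 0 without ethanol libraries 1 and 4, and 8 to 215 with any 1 library left out; the cause was not tested. With the replicate block the response gave 2440 genes and the difference 24. Same-numbered control and ethanol libraries deviated together with r of -0.07 to 0.036 over genes, so the pairing is by number only. Of 137 called named genes 110 kept their call under every alternative, 26 lost it without ethanol libraries 1 and 4, and 11 lost it without some single library. The largest rises and falls were named only if they kept their call without ethanol libraries 1 and 4. Others were named for a small p, so these counts are a description and carry no test. Of all 2543 called genes 984 kept their call without those libraries. None of the 137 changed sign. Named genes without a call changed sign in 37 pairs of gene and alternative. Some list medians changed sign without ethanol libraries 1 and 4, such as that of clock genes (-0.11 to 0.08). Depth limits the genes near the floor, where few reads stand behind a value.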

Other observations

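The division of the ethanol libraries was seen in both genotypes. Deviations from the group mean, correlated over genes, were positive between wild-type and knockout-labelled ethanol libraries within numbers 1 and 2 (r from 0.098 to 0.246) and within numbers 3 and 4 (0.102 to 0.219). They were negative in all 8 comparisons across these sets (-0.25 to -0.076). Deviations from a group mean cancel within the group, so positive values within the sets force a negative balance across them. The negative values are therefore no separate observation. The labels name no batch that separates these libraries, and genes are not independent, so no p is given.

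The genes of iron hormones had wide control ranges. Hamp, which encodes hepcidin, the hormone that blocks iron export, was at 5384, 8171, 16548 and 8231 normalised reads in the control libraries and 6187, 5443, 2339 and 3959.9 in the ethanol libraries (log2 -1.07 ± 0.72 SE, limma adjusted p = 0.315). Its near copy Hamp2 was at 204, 317, 34.99 and 29.7 and then 12.8, 15.3, 21.4 and 13.5 (log2 -2.49 ± 0.61 SE, limma adjusted p = 0.00898), with control libraries 1 and 2 far above 3 and 4; without ethanol libraries 1 and 4 that call was lost (limma adjusted p = 0.0947).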
